A study of Mus musculus with 4 samples.

Results

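Zbtb16 encodes PLZF, a zinc-finger transcription factor. The cells described here are the barcodes of 2 mouse single-cell libraries that held at least 2 Zbtb16 UMIs and under 3 UMIs of Bcl11b, counted over barcodes in which 500 or more genes were detected and mitochondrial transcripts made up less than 10%. A UMI is a molecular tag that marks 1 captured transcript. The rule selected 1010 of 19546 cells, 653 of 9332 in experiment 1 and 357 of 10214 in experiment 2. They were chosen by their Zbtb16 and Bcl11b counts, so the levels of these genes describe the choice and are not results. The cells against which they are described have no Zbtb16 UMI, 7582 in experiment 1 and 8853 in experiment 2. At the edge of the rule, 329 and 211 of the selected cells had exactly 2 Zbtb16 UMIs, and 833 and 681 cells with 1 Zbtb16 UMI and under 3 Bcl11b UMIs lay just outside it. At the other edge, 67 and 32 of the selected cells had 2 Bcl11b UMIs, and 155 and 154 cells with enough Zbtb16 were left out for 3 or more. The highest Zbtb16 count in a selected cell was 11 UMIs in experiment 1 and 10 in experiment 2.

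The cells were early T-cell progenitors grown in culture from mouse bone marrow, and the study asked what Runx transcription factors do in them. All cultures were on OP9-Dll1, a stromal line that displays a Notch ligand, with IL-7 and Flt3-ligand at 10 ng/ml each, and all cells carried a Bcl2 transgene. For overexpression, marrow of B6.Bcl2 mice aged 8 to 10 weeks received MSCV-Runx1-mCherry or the control MSCV-empty-mCherry on day 2, and lineage-negative mCherry+ CD45+ cells were sorted after 4 or 6 days of culture. For double knockout, marrow of B6.Cas9;Bcl2 mice received E42-gRunx1-humanNGFR with E42-gRunx3-mTurquoise on day 2, with 3 gRNA pairs for each target, or the E42-gControl vectors against luciferase, and lineage-negative mTurquoise+ hNGFR+ CD45+ cells were sorted after 5 or 8 days. The labels give 4 to 5 days of culture for experiment 1 and 4 to 8 days for experiment 2. Equal cell numbers of each replicate, stained with its own hashtag antibody, were pooled into 1 mRNA library per experiment.

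PLZF directs innate-like lymphocyte programmes. It is made by precursors of innate lymphoid cells and by natural killer T cells and some gamma-delta T cells, in which it drives an early effector-like state. Bcl11b marks the commitment of progenitors to the T lineage. Pgam2 is the muscle form of phosphoglycerate mutase, Gsn is the actin-severing protein gelsolin, and Cd3g is a chain of the T-cell receptor complex. Together with Zbtb16 these 3 genes served as markers of the cells.

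Each cell's sample of origin is read from its hashtag barcode. The 8 barcodes are shown because they are the only identity the samples have: no label used here ties a hashtag to a condition, so each hashtag is given as its own value. The same 8 sequences were used in both experiments, although a number need not mean the same condition in each.
Hashtag 1: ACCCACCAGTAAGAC
Hashtag 2: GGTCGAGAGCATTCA
Hashtag 3: CTTGCCGCATGTCAT
Hashtag 4: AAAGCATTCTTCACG
Hashtag 5: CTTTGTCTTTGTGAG
Hashtag 6: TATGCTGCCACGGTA
Hashtag 7: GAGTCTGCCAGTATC
Hashtag 8: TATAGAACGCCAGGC

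Zbtb16 cells were concentrated in few hashtags. In experiment 1 they made up 18.6% of hashtag 3 (212 of 1142 cells, exact 95% Clopper-Pearson interval 16.3 to 20.9%) and 19.3% of hashtag 4 (225 of 1163, 17.1 to 21.7%). Next came hashtag 6 with 4.98% (56 of 1125) and hashtag 5 with 3.09% (27 of 874). The other 4 hashtags of experiment 1 lay lower, at 1.88% in hashtag 8, 1.43% in hashtag 1, 1.20% in hashtag 2 and 0.846% in hashtag 7. In experiment 2 the share was 10.2% in hashtag 2 (102 of 998, 8.41 to 12.3%) and 6.82% in hashtag 4 (69 of 1011, 5.35 to 8.56%). It was 2.92% in hashtag 3, 2.26% in hashtag 7, 1.33% in hashtag 8, 0.988% in hashtag 5, 0.573% in hashtag 1 and 0.205% in hashtag 6. The order of hashtags 2 and 4 of experiment 2 rests on the limit on Bcl11b. That limit left out 18 cells of hashtag 2 and 79 of hashtag 4 with enough Zbtb16, and without it hashtag 4 had the higher share. The intervals of the leading pair of hashtags in each experiment did not overlap those of the other hashtags; they cover counting error only. Over all single-hashtag cells the share was 6.68% in experiment 1 (575 of 8603) and 3.25% in experiment 2 (254 of 7822).

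**Figure D1:**
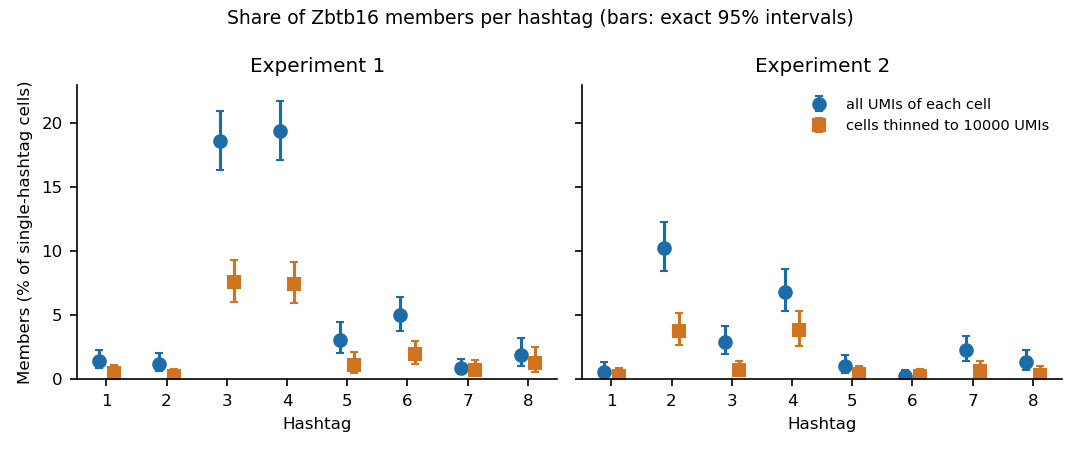
Share of selected Zbtb16 cells (percent of single-hashtag cells, vertical axis) for each hashtag (horizontal axis) in the 2 experiments, with and without thinning to equal depth; bars are exact 95% intervals. Hashtags 3 and 4 of experiment 1 stand at 18.6% and 19.3%, and hashtags 2 and 4 of experiment 2 at 10.2% and 6.82%.

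After each cell was thinned to 10000 UMIs the share ranged from 0.268 to 7.55% over the hashtags of experiment 1 and from 0.223 to 3.81% in experiment 2, with the same pair of hashtags highest in each. Of experiment 1, 569 of 575 Zbtb16 cells and 6524 of 7065 Zbtb16 = 0 cells were deep enough to thin. Of experiment 2, 247 of 254 and 6210 of 6822 were, and shallower cells were left out. The rule was applied again to the thinned counts, and 219 of 8036 cells met it in experiment 1 and 90 of 7159 in experiment 2. In hashtag 3 of experiment 1, 83 of 1100 cells met it, against 212 of 1142 before thinning. The selected cells had a median of 24724 UMIs in experiment 1 and 26463.5 in experiment 2, against 24608 and 25500 for all single-hashtag cells. The background of free Zbtb16 RNA was read from cell types that should lack it. In experiment 2, 0 of 119 B-lineage cells had 2 Zbtb16 UMIs, which allows a share of up to 2.52% (3 counts of 119), and 1 of 177 maturing neutrophils did (0.565%), against 4.58% of all cells. These cells were shallower, at a median of 15584 and 14763 UMIs, and in experiment 1 only 6 and 11 such cells were found. In experiment 2, hashtags 1, 5, 6, 7 and 8 lie under the B-lineage limit, at 0.573%, 0.988%, 0.205%, 2.26% and 1.33%. These shares are not told apart from background. The share of hashtag 3 (2.92%) lies under the upper end of the exact neutrophil interval, 3.11%. In experiment 1 these cell types are too few to set a background. Hashtags 1 and 6 of experiment 2 rest on 5 and 2 Zbtb16 cells.

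The hashtags rich in Zbtb16 cells had the lowest Runx1 levels. Levels are counts per 1000000 UMIs (CPM), summed over the cells of a hashtag. Over all cells of a hashtag in experiment 1, Runx1 was at 36.7 and 38.4 CPM in hashtags 3 and 4, and between 75.6 and 240.2 CPM in the other 6. In experiment 2 it was at 35.9 and 35.8 CPM in hashtags 2 and 4, and between 51.0 and 120.8 CPM in the other 6. The labels do not tie these hashtags to a Runx1 condition, and the relation was not tested.

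The Zbtb16 cells were then compared with the Zbtb16 = 0 cells of the same hashtag, so that differences between hashtags do not enter. The comparison used the hashtags with at least 20 Zbtb16 cells: 3, 4, 5 and 6 in experiment 1 and 2, 3, 4 and 7 in experiment 2. Ratios are given on the log2(CPM + 5) scale as the median over the 4 hashtags, which understates the change of low genes. A gene is called higher or lower where that median is at least 2-fold and all 4 hashtags lie on the same side. There is no test, because the hashtags are samples of unknown condition and cells of 1 library are not replicates. In experiment 1, 8 of 5656 genes were called higher, 0.141%, and 16 lower, 0.283%. In experiment 2, 8 of 5329 genes were called higher, 0.150%, and 85 lower, 1.60%. The median gene stood at a log2 ratio of 0.0157 and 0.0389. The counts changed with 1 hashtag left out, which also leaves fewer hashtags that must agree. Without hashtag 3 or 4 of experiment 1, 17 and 19 genes were called higher, and without hashtag 5 or 6 of it 4 and 5. Without hashtag 4 of it 27 were called lower. Without hashtag 7 of experiment 2, 13 genes were called higher and 136 lower. In that hashtag the Zbtb16 cells were deeper than the Zbtb16 = 0 cells, at a median of 32139 against 21107 UMIs, and with Zbtb16 = 0 cells matched on UMIs 48 genes were called lower in experiment 2.

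The marker list held only in part within hashtags. Pgam2 was called higher in both experiments. Gsn had a median log2 ratio of 0.37 in experiment 1 and 0.03 in experiment 2, with hashtags on both sides of 0. Cd3g had 0.12 and -0.98, again with mixed signs. When all hashtags were pooled, Pgam2 was 7.94 and 9.07 times as high in Zbtb16 cells, Gsn 4.79 and 2.95 times and Cd3g 2.79 and 0.982 times. Most Zbtb16 cells came from hashtags in which the Zbtb16 = 0 cells were also high in Pgam2 and Gsn. The cells are therefore called Zbtb16 cells here, by their rule.

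Among the genes called higher, Pgam2 had the largest ratio in both experiments. In experiment 1 its level was 290 CPM in Zbtb16 cells and 127 CPM in Zbtb16 = 0 cells of hashtag 3, and 289 against 136 CPM in hashtag 4. In hashtag 5 it was 19.1 against 1.99 CPM and in hashtag 6 23.5 against 2.68 CPM. Hashtags 3 and 4 were thus high in both kinds of cell, and Zbtb16 cells were the higher in all 4. In experiment 2 the levels were 542 against 189 CPM in hashtag 2, 33.5 against 4.05 CPM in hashtag 3, 931 against 303 CPM in hashtag 4 and 12.8 against 2.89 CPM in hashtag 7. The median ratio was 2.78-fold (log2 1.47) in experiment 1 and 2.93-fold (log2 1.55) in experiment 2, and every hashtag's counting interval for the ratio lay above 1.

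Fgf3, which encodes a secreted fibroblast growth factor, was the other gene called higher in both experiments. In experiment 1 it was at 236 against 98.3 CPM in hashtag 3, 217 against 103 CPM in hashtag 4, 158 against 84.2 CPM in hashtag 5 and 165 against 74.8 CPM in hashtag 6, a median log2 ratio of 1.07. In experiment 2 it was at 206 against 67.4 CPM in hashtag 2, 135 against 48.2 CPM in hashtag 3, 212 against 68.6 CPM in hashtag 4 and 267 against 97.5 CPM in hashtag 7, a median of 1.47. In these 4 hashtags of each experiment the lowest level in Zbtb16 cells exceeded the highest level in Zbtb16 = 0 cells. Over all 8 hashtags the levels overlapped, and Fgf3 was higher in Zbtb16 cells in 8 of 8 hashtags of experiment 1 and in 6 of 8 of experiment 2. These 2 genes are 25.0% of the 8 genes called higher in each experiment.

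The windows of 250 bases before the starts of Fgf3 and Pgam2 are shown because these genes were higher together in both experiments (RefSeq, GRCm38.p6, 5′ to 3′ on the gene's strand). The windows were searched on both strands for 4 sets of letters. The GATA letters are AGATAA. The Runx letters are TGTGGT. The TCF letters are CTTTGA. The E-box letters are CACCTG. Capitals mark the matches, read on either strand. Fgf3 is on the + strand at chr7:144838362-144838611 and Pgam2 on the - strand at chr11:5803797-5804046.
Fgf3: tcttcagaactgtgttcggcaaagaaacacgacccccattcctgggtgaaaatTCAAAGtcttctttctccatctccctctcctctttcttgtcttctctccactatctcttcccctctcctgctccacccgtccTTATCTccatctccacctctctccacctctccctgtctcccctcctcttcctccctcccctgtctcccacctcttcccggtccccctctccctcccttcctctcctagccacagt
Pgam2: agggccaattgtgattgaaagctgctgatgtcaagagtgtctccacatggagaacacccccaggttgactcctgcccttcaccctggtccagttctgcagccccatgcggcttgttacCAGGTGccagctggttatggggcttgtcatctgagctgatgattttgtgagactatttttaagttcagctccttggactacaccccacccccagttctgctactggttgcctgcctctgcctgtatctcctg
The Fgf3 window holds the GATA and TCF letters and the Pgam2 window the E-box letters. Of 32851 windows of this length, 9.99% held the GATA letters, 14.0% the Runx letters, 13.8% the TCF letters and 17.2% the E-box letters. Of the 14 genes called higher in either experiment 13 had a window, and 2, 5, 3 and 4 of these held the letters, in that order. A gene was counted if any of its windows held the letters, while the percentages are per window, so these values are not alike. A match describes letters and is not a binding site.

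The remaining genes called higher differed between the experiments. In experiment 1 they were Tnni1, a troponin subunit of slow muscle (1.45), Lmna, which encodes lamin A and C (1.34), Pdcd1, which encodes the receptor PD-1 (1.33), Tnfrsf9, the co-stimulatory receptor 4-1BB (1.24), Colq, the collagen-like tail of acetylcholinesterase (1.13), and Upp1, a uridine phosphorylase (1.06). In experiment 2 they were Snap47 (1.27), Gata3 (1.26), Cpa3 (1.13), the trypsinogen Prss2 (1.07), the tubulin Tuba8 (1.06) and Nrgn, a calmodulin-binding protein (1.04). Of the 8 genes of experiment 1, 7 had a median above 0 in experiment 2. The exception was Lmna, at -1.06 with mixed signs. All 8 genes of experiment 2 had a median above 0 in experiment 1.

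Gata3, Tcf7 and Cpa3 were higher in Zbtb16 cells in all 4 hashtags of both experiments. Gata3, a factor that both T cells and innate lymphoid precursors need, was at 206 against 106 CPM, 190 against 107 CPM, 84.5 against 58.9 CPM and 109 against 59.9 CPM in hashtags 3, 4, 5 and 6 of experiment 1 (median log2 ratio 0.80). In experiment 2 it was at 146 against 56.7 CPM, 96.0 against 31.9 CPM, 182 against 74.6 CPM and 75.7 against 51.0 CPM in hashtags 2, 3, 4 and 7 (1.26). Tcf7, the Notch-induced factor TCF-1, lay between 306 and 344 CPM in Zbtb16 cells and between 145 and 226 CPM in Zbtb16 = 0 cells of experiment 1 (0.84). In experiment 2 the ranges were 203 to 256 CPM and 87.9 to 157 CPM (0.79). The ranges of Tcf7 thus did not overlap in these 4 hashtags of either experiment; over all 8 hashtags they did. Cpa3, a mast-cell carboxypeptidase that early progenitors also carry, had 0.97 and 1.13.

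**Figure D2:**
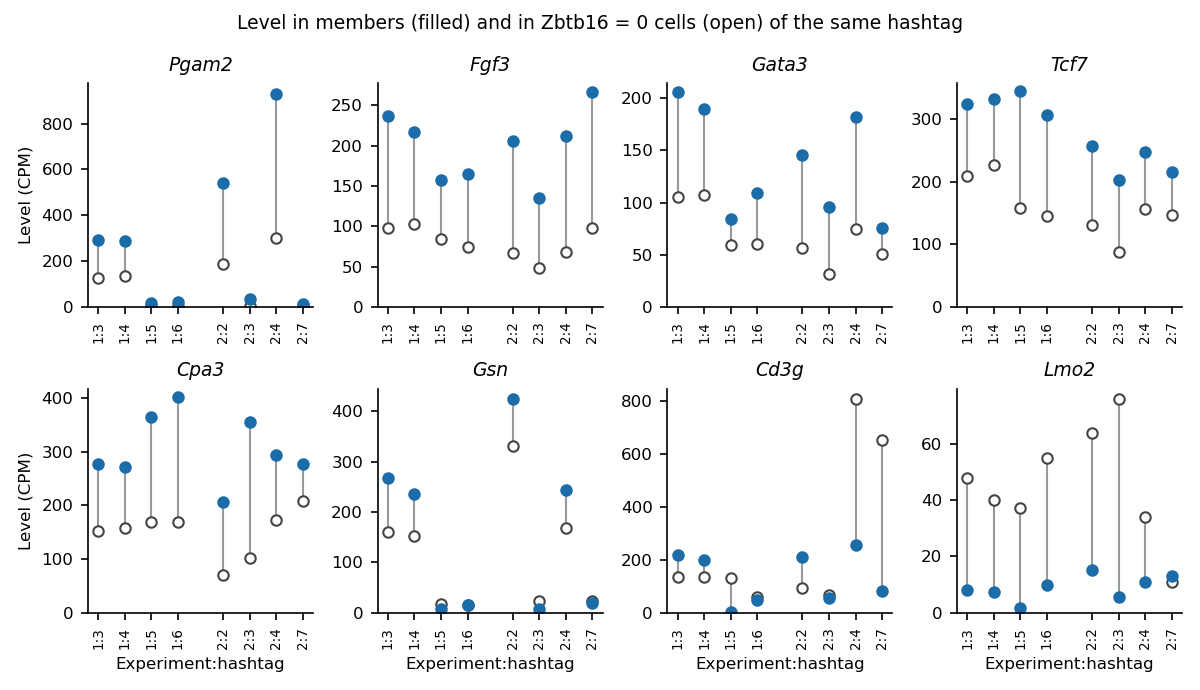
Level in CPM (vertical axes from 0) of 8 genes in the selected Zbtb16 cells (filled) and in Zbtb16 = 0 cells (open) of each hashtag with at least 20 selected cells, named on the horizontal axis as experiment:hashtag. Pgam2, Fgf3, Gata3, Tcf7 and Cpa3 are higher in Zbtb16 cells in all 8 pairs, Gsn and Cd3g have mixed signs, and Lmo2 is lower in all pairs except hashtag 7 of experiment 2.

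Of 20 genes listed for innate lymphoid precursors, 7 passed the minimum of 20 CPM in experiment 1 and 8 in experiment 2. In each experiment 5 of these were higher in all 4 hashtags and none was lower in all 4, and 1 was called higher, Pdcd1 in experiment 1 and Gata3 in experiment 2. The median over the list was 0.69 and 0.70. For comparison, 17.8% and 15.5% of all tested genes were higher in all 4 hashtags. A gene passes the minimum on its level in either class, so a listed gene can enter through the Zbtb16 cells alone. Listed genes low in both classes were not tested, and this filter can tilt the counts of the list toward higher. Tox, a regulator needed by innate lymphoid precursors, had 0.69 and 0.62. The integrin subunit Itga4 had 0.51 and 0.85. Pdcd1 was at 27.2 against 11.2 CPM, 25.5 against 11.2 CPM, 41.5 against 9.59 CPM and 41.4 against 5.61 CPM in experiment 1. It passed the minimum there only through the Zbtb16 cells. In hashtag 4 of experiment 2 it was slightly lower in Zbtb16 cells, 44.5 against 46.9 CPM. Id2, the inhibitor of E proteins that marks innate lymphoid fate, had mixed signs in these hashtags, with medians of -0.19 and -0.25.

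Of 29 T-lineage genes, 14 and 16 passed the minimum. In experiment 1, 7 were higher and 1 lower in all 4 hashtags, and none was called. In experiment 2, 3 were higher and none lower in all 4 hashtags, and Gata3 was called. The medians were 0.25 and 0.03. The Zbtb16 = 0 cells have no limit on Bcl11b. In experiment 2 they include 217 of 677 cells in hashtag 4 and 200 of 916 in hashtag 7 with 3 or more Bcl11b UMIs. The list thus compares cells limited in Bcl11b with cells that were not. Trbc1, a constant segment of the T-cell receptor beta locus, had 0.66 and 0.55, and Il2ra, the IL-2 receptor alpha chain that rises as progenitors advance, had 0.53 and 0.69. Cd7 was lower, at -0.78 and -0.58. The list of 18 NK and cytotoxic genes had medians of 0.35 over 6 tested genes and 0.33 over 8. Its most abundant gene Gzma, which encodes granzyme A, had 0.79 and 1.16, with a lower level in hashtag 7 of experiment 2. Fcer1g, a signalling adaptor of innate receptors, had 0.66 and 0.75 and was higher in all 4 hashtags of both. Xcl1, a chemokine, was called lower in experiment 2 at -2.07. The 18 genes listed for NKT and gamma-delta T cells had 5 tested in each experiment, none called, and medians of 0.25 and 0.23.

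Genes of multipotent and myeloid-competent progenitors were found lower and higher. Of 20 listed progenitor genes 13 passed the minimum in experiment 1, where 3 were called lower, 7 were lower in all 4 hashtags and 4 higher, with a median of -0.58. Lmo2, a stem-cell adaptor of transcription complexes, was at 8.10 against 48.0 CPM in hashtag 3, 7.28 against 40.0 CPM in hashtag 4, 1.59 against 37.3 CPM in hashtag 5 and 9.66 against 55.0 CPM in hashtag 6 (median -2.02). The other called genes were Mef2c, a factor of lymphoid and myeloid progenitors (-1.91), and the stem-cell surface protein Cd34 (-1.11). In experiment 2, 11 genes passed the minimum and none was called; 5 were lower and 2 higher in all 4 hashtags, with a median of -0.28. Of all tested genes, 13.5% and 10.5% were lower in all 4 hashtags. Lmo2 there was at 15.2 against 63.7 CPM, 5.58 against 75.9 CPM and 11.0 against 34.1 CPM in hashtags 2, 3 and 4, but at 12.8 against 10.8 CPM in hashtag 7. Bcl11a had -0.59 and -0.28 and Hhex -0.58 and -0.18, each lower in all 4 hashtags of both experiments. Spi1, the myeloid regulator PU.1, had -0.68 and -0.35 and was higher in hashtag 7 of experiment 2. Kit, the stem-cell factor receptor, was higher in all 4 hashtags of both experiments, at 0.36 and 0.73.

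The largest ratios in either direction were those of other lineages. In experiment 1, 6 of the 12 granulocyte and monocyte markers passed the minimum and all 6 were called lower, with a median of -3.08. Prtn3, a primary granule protease, had -3.66, S100a9 -3.36, S100a8 -3.23, Elane, neutrophil elastase, -2.92, Ctsg -1.75 and Mpo, myeloperoxidase, -1.60. Their summed level was 36.8 to 147 CPM in the Zbtb16 cells of the 4 hashtags and 416 to 739 CPM in the Zbtb16 = 0 cells. In experiment 2 the granulocyte list had 8 tested genes, 3 called lower and a median of -2.68, with sums of 175 to 844 CPM against 196 to 7689 CPM. All 8 tested stromal genes of experiment 2 were called lower, with a median of -3.36, led by the collagen Col1a2 at -3.77 and the chemokine Cxcl12 at -3.57. The sum of the stromal list was 12.2 to 25.7 CPM in Zbtb16 cells and 229 to 2146 CPM in Zbtb16 = 0 cells, while no stromal gene passed the minimum in experiment 1. A gene passes the minimum on its level in either class. Genes of these lists that were low in Zbtb16 cells therefore entered through the Zbtb16 = 0 cells, and genes low in both classes were not tested. That all tested genes of a list were called lower partly follows from this filter and is no separate support.

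When both classes were limited to cells with under 5 UMIs in each of the stromal, granulocyte and B-lineage lists, a choice made after the data were seen, 4 genes were called lower in experiment 1 and 18 in experiment 2. That limit uses the genes of these lists themselves, so their ratios under it are not read, and it left 3 hashtags in experiment 2. Without the limit Irf8, a factor of dendritic and monocytic cells, was called lower in both experiments, at -1.64 and -1.89. The 7 genes called lower in both were Ccnd1, Irf8, Ly6a, Ms4a6c, S100a8, S100a9 and Slfn2, 43.8% of the list of experiment 1 and 8.24% of that of experiment 2.

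The remaining gene lists were as follows. The 5 listed Runx genes had medians of 0.03 and 0.23 with none called. Runx1 had -0.04 and -0.33 and Runx3 0.03 and 0.37. The 21 homing and cytokine receptor genes had medians of 0.04 and 0.16 with none called; Il12rb2, a chain of the IL-12 receptor, was higher in all 4 hashtags of both, at 0.57 and 0.87. The 6 E protein and Id genes had -0.01 and -0.40, with Id3 called lower in experiment 2 at -2.61. The 8 genes grouped with Pgam2 had medians of -0.09 and -0.64: Pgam2 was called higher in both, Tgm2 lower in experiment 1 and Gbp2 lower in experiment 2. Of 10 S-phase genes 7 were higher in all 4 hashtags of each experiment, by a median of 0.13 and 0.20, and of 10 genes of G2 and mitosis none was, with medians of 0.02 and -0.12.

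**Figure D3:**
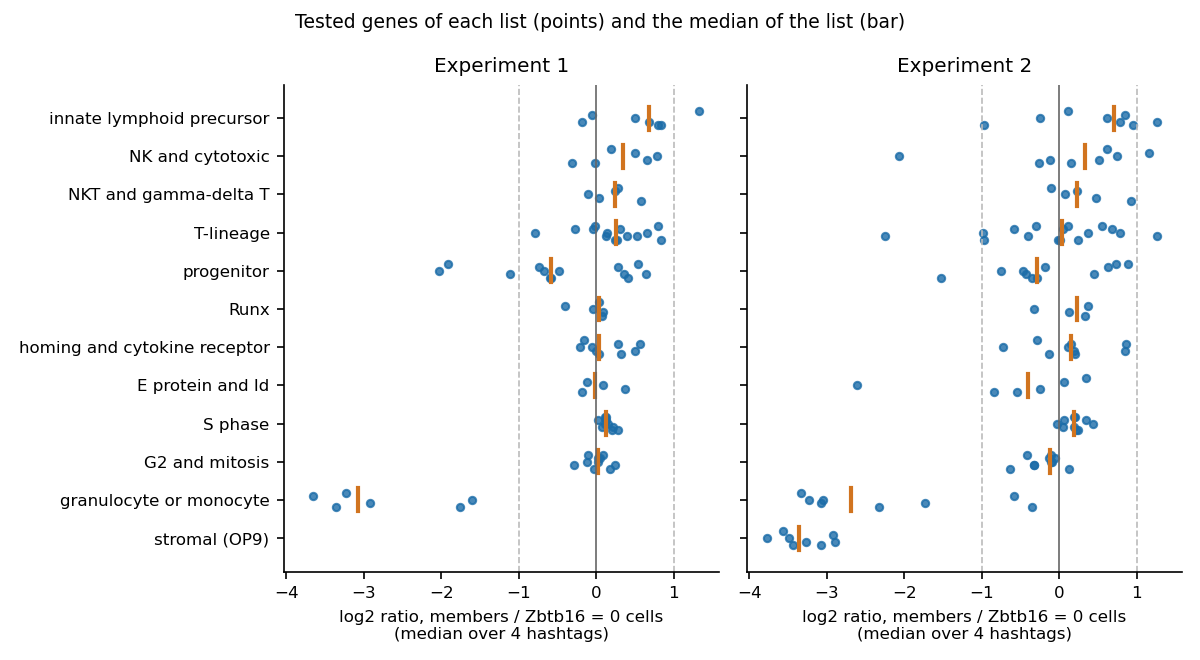
Median within-hashtag log2 ratio of Zbtb16 cells to Zbtb16 = 0 cells (horizontal axis) for the tested genes of each list (points; the bar is the median of the list; dashed lines mark 2-fold). Of the lists drawn, the innate lymphoid precursor list has the highest median, 0.69 and 0.70, and the granulocyte or monocyte list lies at -3.08 and -2.68.

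Markers of the remaining cell types were as follows. The mast and basophil list had medians of 0.33 and -0.13, with Cpa3 called in experiment 2. The dendritic list had -0.68 and -0.97 with Irf8 called in both, the B-lineage list -0.64 and -1.89 with Ebf1 called in experiment 2, and the erythroid list 1 tested gene at -0.46 and 0.67. The NK-like list had only Gzma tested. No mature T-cell gene passed the minimum; their summed level was 5.52 to 15.9 CPM in Zbtb16 cells of experiment 1 and 3.23 to 25.7 CPM in experiment 2.

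Cells with 1 Zbtb16 UMI, which are in neither class, are shown beside the classes for the hashtags with most Zbtb16 cells. In hashtag 3 of experiment 1 Gata3 was at 106, 160, 178 and 234 CPM in cells with 0, 1, 2 and 3 or more Zbtb16 UMIs, and in hashtag 2 of experiment 2 at 56.7, 116, 126 and 184 CPM. Fgf3 was at 98.3, 178, 240 and 233 CPM and at 67.4, 171, 190 and 238 CPM in the same hashtags. Lmo2 ran the other way, at 48.0, 17.5, 6.63 and 9.57 CPM and at 63.7, 18.7, 18.2 and 8.93 CPM. Pgam2 in hashtag 4 of experiment 2 was at 303, 762, 741 and 1129 CPM. In hashtag 4 of experiment 1 it was at 136, 306, 278 and 300 CPM, flat from 1 UMI on. Tcf7 in hashtag 4 of experiment 2 was at 157, 286, 274 and 219 CPM, highest in cells with 1 UMI.

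**Figure D4:**
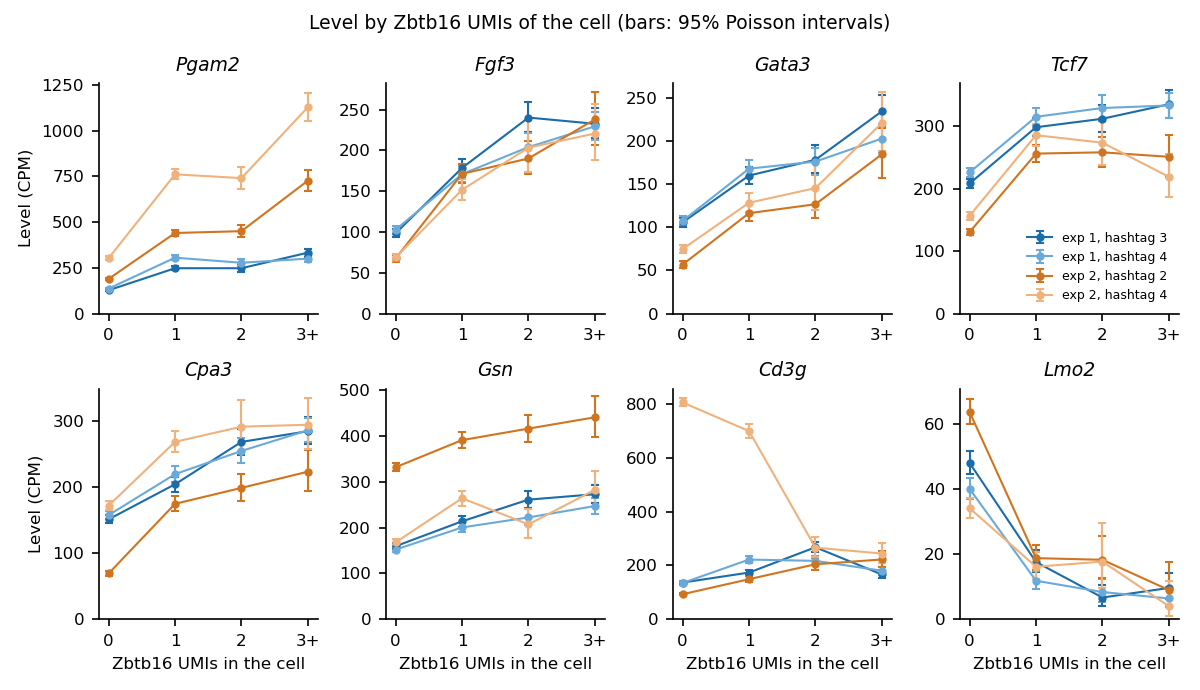
Level in CPM (vertical axes from 0; bars are 95% Poisson intervals) of 8 genes in cells with 0, 1, 2 or 3 and more Zbtb16 UMIs (horizontal axis), for the 2 hashtags with most Zbtb16 cells in each experiment; only the cells with 2 or more UMIs are limited to under 3 Bcl11b UMIs. Gata3 climbs at each step in all 4 hashtags, and Cd3g of hashtag 4 in experiment 2 falls from 807 to 244 CPM.

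The course of Cd3g depends on the limit on Bcl11b. In hashtag 4 of experiment 2 it was at 807 CPM in Zbtb16 = 0 cells and 256 CPM in Zbtb16 cells, but the Zbtb16 = 0 cells include 217 of 677 cells with 3 or more Bcl11b UMIs, in which Cd3g was at 2044 CPM. The 79 cells of that hashtag that had enough Zbtb16 but too much Bcl11b had 934 CPM of Cd3g. The same kind of cell was also highest in Pgam2: 561 and 486 CPM in the 60 and 65 such cells of hashtags 3 and 4 in experiment 1, and 1288 and 1209 CPM in the 18 and 79 such cells of hashtags 2 and 4 in experiment 2. The rule thus leaves out the Zbtb16-positive cells in which Cd3g and Pgam2 were highest.

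The Zbtb16 cells of different hashtags were not alike, which the median over the larger hashtags does not show. Id2 was at 27.8 and 28.3 CPM in the Zbtb16 cells of hashtags 3 and 4 of experiment 1 and at 419.7, 474.6 and 171.9 CPM in those of hashtags 7, 8 and 1. Not every hashtag with few Zbtb16 cells was high in Id2. It was lowest in hashtag 2, at 26.7 CPM in 14 Zbtb16 cells. In experiment 2 it was at 27.7 and 51.6 CPM in hashtags 2 and 4 and at 425.5 and 129.1 CPM in hashtags 8 and 5. The Zbtb16 = 0 cells spread less, with 30.4 to 95.6 CPM of Id2 over the 8 hashtags of experiment 1 and 45.0 to 107.1 CPM in experiment 2. Pgam2 had no UMI in the 10 and 13 Zbtb16 cells of hashtags 7 and 8 of experiment 1. The Zbtb16 = 0 cells spread in Pgam2 too, from 0.620 to 136 CPM over the hashtags of experiment 1, with 0.620 and 1.03 CPM in hashtags 7 and 8, and from 0.832 to 303 CPM in experiment 2. The hashtags rich in Id2 held few Zbtb16 cells, 10, 13 and 18 in hashtags 7, 8 and 1 of experiment 1 and 13 and 9 in hashtags 8 and 5 of experiment 2. The shares of these hashtags of experiment 2 are not told apart from background, and experiment 1 has too few background cells to say.

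Il2rb, Runx3 and Pdcd1 also differed between hashtags. Il2rb, the IL-2 and IL-15 receptor beta chain, was at 4.79 and 3.31 CPM in hashtags 3 and 4 of experiment 1, 46.2 CPM in hashtag 1, 81.4 CPM in hashtag 7 and 150.7 CPM in hashtag 8. The other hashtags of that experiment lay between. In experiment 2 Il2rb was at 1.85 and 5.81 CPM in hashtags 2 and 4 and at 102.8 CPM in hashtag 8. Runx3, a factor of cytotoxic and innate lymphoid cells, was at 103.2 and 113.2 CPM in hashtags 3 and 4, 509.7 and 459.6 CPM in hashtags 7 and 8 and 249.5 CPM in hashtag 1 of experiment 1. In experiment 2 Runx3 was at 303.6 CPM in hashtag 8, against 106.1 and 92.3 CPM in hashtags 2 and 4. In Zbtb16 = 0 cells Runx3 stayed between 64.5 and 175.4 CPM over all hashtags. Pdcd1 was highest in hashtag 8 of experiment 1, at 143.1 CPM, and was at 164.9 CPM in hashtag 8 of experiment 2. Runx condition and culture time cannot be told apart in these differences between hashtags.

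**Figure D5:**
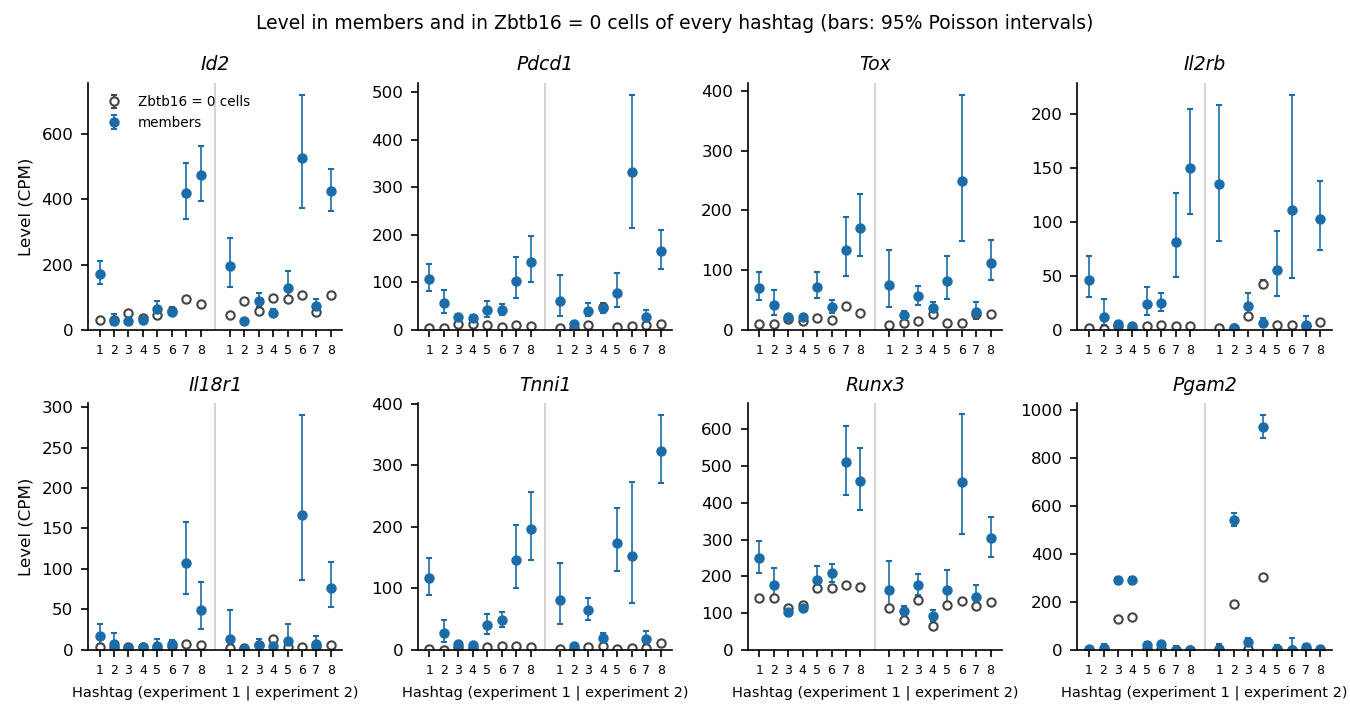
Level in CPM (vertical axes from 0) of 8 genes in the selected Zbtb16 cells (filled) and in Zbtb16 = 0 cells (open) of all 8 hashtags of each experiment (horizontal axis; the line parts the experiments; bars are 95% Poisson intervals). Id2 of the Zbtb16 cells spans 26.7 to 474.6 CPM in experiment 1; in experiment 2 its span is 27.7 to 425.5 CPM over the hashtags other than 1 and 6, which rest on 5 and 2 Zbtb16 cells, and Pgam2 is high in hashtags 3 and 4 and in hashtags 2 and 4.

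Some differences had the same direction in all hashtags, hashtags 1 and 6 of experiment 2 with their 5 and 2 Zbtb16 cells included. Gata3, Tcf7 and Cpa3 were higher in Zbtb16 cells in 8 of 8 hashtags of both experiments, each time with a 95% Poisson interval of the Zbtb16 cells above the level in Zbtb16 = 0 cells. Tnni1, Tox, Itga4 and Kit were also higher in 8 of 8 hashtags of both. Cd34 was at 37.7 to 63.1 CPM in Zbtb16 cells and 100.3 to 231.0 CPM in Zbtb16 = 0 cells of experiment 1, lower in 8 of 8 hashtags. In experiment 2 Cd34 was also lower in 8 of 8, at 0 to 78.0 CPM against 33.9 to 203.2 CPM.

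The Zbtb16 cells with at least 2 Id2 UMIs and at least 1 Pdcd1 UMI were counted, a threshold chosen after the levels were seen. The count is given without the share of each gene alone, so it does not test whether the genes occur together. Both genes had already been seen high in the Zbtb16 cells of some hashtags, so a high share there adds no separate support. There were 57 of 575 in experiment 1 (9.91%, exact interval 7.59 to 12.7%) and 34 of 254 in experiment 2 (13.4%, 9.45 to 18.2%). Among Zbtb16 = 0 cells the shares were 2.89% (204 of 7065) and 3.93% (268 of 6822). With every cell thinned to 10000 UMIs the shares were 5.80% against 1.01% and 8.91% against 1.53%. The excess was not the same in every hashtag. In hashtags 3 and 4 of experiment 1 the shares were 5.19% (11 of 212) and 4.00% (9 of 225) of Zbtb16 cells, against 4.19% and 2.27% of Zbtb16 = 0 cells of the same hashtags, and the exact intervals of the Zbtb16 cells include the latter shares. In hashtags 1, 7 and 8 they were 9 of 18, 5 of 10 and 7 of 13 Zbtb16 cells, against 2.21%, 4.45% and 2.75% of Zbtb16 = 0 cells. In experiment 2 they were 0.980% (1 of 102) against 1.04% in hashtag 2 and 8.70% (6 of 69) against 8.57% in hashtag 4, and at 10000 UMIs hashtag 4 had 1.56% against 4.79%. In hashtag 8 they were 9 of 13 Zbtb16 cells against 6.90% of Zbtb16 = 0 cells. A Pgam2 UMI was found in 70.3% (149 of 212) and 65.3% (147 of 225) of the Zbtb16 cells of hashtags 3 and 4 of experiment 1 and in none of the 10 and 13 of hashtags 7 and 8. The Zbtb16 = 0 cells had the same order, at 37.6%, 39.9%, 1.13% and 1.99% in hashtags 3, 4, 7 and 8.

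Several innate lymphoid transcripts were higher in the Zbtb16 cells with Id2 and Pdcd1 than in the other Zbtb16 cells. Il18r1, the IL-18 receptor, was at 41.7 against 2.86 CPM in experiment 1 and 62.5 against 2.88 CPM in experiment 2. Il2rb was at 92.0 against 4.26 CPM and 121.5 against 3.05 CPM. Rora, a nuclear receptor needed by type-2 innate lymphoid cells, was at 28.0 against 3.82 CPM and 42.8 against 2.88 CPM, and Tox at 116.4 against 22.7 CPM and 142.4 against 28.7 CPM. Icos, a co-stimulatory receptor, was at 14.4 against 0.808 CPM and 40.5 against 0.339 CPM. Tnni1 showed one of the widest gaps, 175.3 against 8.08 CPM and 310.2 against 8.65 CPM. Arg1, which encodes an arginase and is carried by some innate lymphoid cells, had no UMI in the 575 and 254 Zbtb16 cells. Il1rl1 of the same list had no UMI in the 57 cells with both transcripts and 10 UMIs in the other 518 of experiment 1. Fgf3 was lower in the cells with both transcripts of experiment 1, at 114 against 212 CPM. A UMI of it was found in 20 of 57 against 474 of 518 cells. In experiment 2 it was found in 5 of the 34 cells with both transcripts.

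Part of this split was seen inside hashtags 3 and 4 of experiment 1, where 20 cells had both transcripts and 417 did not. Il18r1 was at 20.5 against 2.10 CPM, Il2rb at 39.2 against 2.28 CPM and Tnni1 at 93.3 against 4.48 CPM. Pgam2 was at 274 against 291 CPM there and Fgf3 at 239 against 226 CPM. The like sums of Fgf3 hide a difference in the cells that held it. A UMI of Fgf3 was found in 11 of 20 against 394 of 417 cells, and one of Pgam2 in 13 of 20 against 283 of 417. Runx3 was lower in the cells with Id2 and Pdcd1 of hashtags 3 and 4, at 65.3 against 111 CPM. In the other 6 hashtags of experiment 1 it was higher in such cells, at 391.5 against 199.8 CPM, and over all hashtags at 265.9 against 128.1 CPM. Only 7 cells with both transcripts were found in hashtags 2 and 4 of experiment 2. The cells with both transcripts were no deeper than the rest, at a median of 21064 against 25079 UMIs in experiment 1 and 25751 against 26603 UMIs in experiment 2. Fewer such cells and less RNA per cell cannot be told apart in a summed level.

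Cells carrying more than 1 hashtag were left out of these comparisons. The share of Zbtb16 cells among them was 11.2% in experiment 1 (78 of 694) and 4.90% in experiment 2 (103 of 2101). None of 35 and 291 barcodes without a hashtag qualified. The libraries shared 39 cell barcodes. Each experiment is 1 library, so no value here has a replicate beyond its hashtags.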

How the data were processed

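Both mRNA libraries (10x Chromium version 3) and their hashtag libraries were used as the authors deposited them: raw UMI counts per gene or hashtag and barcode, made with Cell Ranger 3.0.0 on mm10 (GRCm38), per the submitters' processing notes. Barcodes needed 500 detected genes and a mitochondrial fraction below 10%. HTODemux (Seurat 5.3.0, R 4.3.3, positive quantile 0.99) assigned each barcode to a hashtag. Barcodes with several hashtags were left out of the comparisons, and doublets within a hashtag were not removed. Counts were summed per hashtag and class in Python 3.11.15 (numpy 2.4.6, pandas 2.3.3, scipy 1.17.1), scaled to CPM and compared as log2 ratios with a pseudocount of 5 CPM, over genes with a median of at least 20 CPM in either class; Zbtb16 and Bcl11b were left out. No test was run, since hashtags have no stated condition; exact 95% intervals cover counting error only. edgeR 4.0.16 and DESeq2 1.42.0 served only for other scalings. The ratio step was tested on simulated data.

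Named genes were the 4 markers, the listed genes, and in each experiment the 12 highest and 8 lowest called ratios; Ccnd1, Ly6a and Slfn2 were named only as shared. The Zbtb16 cells and the lists were chosen with earlier results of these data known. Of 31053 gene IDs 30934 matched the name table. Promoter windows came from RefSeq.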

Additional observations from a re-analysis of the deposited data

Results flagged for a closer look

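In a group of 4 hashtags, the log2 ratio of Zbtb16 cells to Zbtb16 = 0 cells had 1 hashtag far from the others for 7 of 129 sets of values, where chance gives about 1 in 20. In experiment 1 these were Bcl2 in hashtag 6 (0.75, the nearest other at 0.28), Dtx1 in hashtag 5 (0.0345 against -0.26), Cbfb in hashtag 5 (-0.20 against 0.08) and Runx1 in hashtag 5 (-0.52 against -0.06). In experiment 2 they were Gbp2 in hashtag 2 (-0.26 against -1.59), Cd81 in hashtag 2 (-1.97 against -1.01) and Mef2c in hashtag 3 (-3.08 against -0.83).

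Over all 8 hashtags, the level in Zbtb16 cells had 1 far hashtag for 6 of 30 sets of values, more than the 1 in 20 that chance gives. Hashtag 6 of experiment 2, which rests on 2 Zbtb16 cells, was far above the rest for Tox (249.3 CPM, nearest 112.4), Il18r1 (166.2 CPM, nearest 76.5) and Lmna (346.3 CPM, nearest 154.9). In experiment 1, Rora was at 113.0 CPM in hashtag 8 (nearest 17.1), Il18r1 at 107.1 CPM in hashtag 7 (nearest 49.0) and Tcf7 at 194.0 CPM in hashtag 2 (nearest 304.9).

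Barcodes with more than 1 hashtag, which no comparison used, held Zbtb16 cells at 11.2% in experiment 1 and 4.90% in experiment 2, with a median of 46422.5 and 42048 UMIs.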

How the results depend on the processing

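The share of Zbtb16 cells moved with the rule: 3.24 and 1.27% (experiments 1 and 2) with at least 3 Zbtb16 UMIs, 15.2 and 10.0358% with at least 1, 8.21 and 4.58% with no limit on Bcl11b, 2.73 and 1.26% at 10000 UMIs, and 3.71% in experiment 2 with hashtags called by a ratio. Hashtag 4 of experiment 1 and hashtag 2 of experiment 2 were highest under the main rule. They were then at 9.97 and 3.51%, 38.7 and 29.7%, 24.9% (experiment 1), and 7.40 and 3.75%. At 10000 UMIs other hashtags were highest, hashtag 3 of experiment 1 at 7.55% and hashtag 4 of experiment 2 at 3.81%. With no limit on Bcl11b, hashtag 4 of experiment 2 also lay above hashtag 2. Without 1 hashtag each the share was 4.70 to 7.61% and 2.23 to 3.68%.

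The 8 genes called higher in experiment 1 became 2 at a minimum of 50 CPM, 0 with a pseudocount of 20 CPM, 66 with hashtags pooled and 5 in cells low in other lineages, and 4 to 19 without 1 hashtag each. The 16 lower became 7 at 50 CPM, 33 with no minimum, 9 with a pseudocount of 20 CPM, 27 with at least 3 Zbtb16 UMIs (2 hashtags left), 58 pooled, 4 low in other lineages, 8 in cells with a Tcf7 UMI, and 15 to 27 without 1 hashtag. In experiment 2 the 8 higher became 15 with a pseudocount of 1 CPM, 42 with at least 3 UMIs (2 hashtags left), 65 pooled, 5 low in other lineages, 2 with Tcf7, and 10 to 13 without 1 hashtag. The 85 lower became 48 with a reference matched on UMIs, 25 at 50 CPM, 231 with no minimum, 49 with a pseudocount of 20 CPM, 228 with at least 3 UMIs, 34 with the ratio call, 143 pooled, 18 low in other lineages, 13 with Tcf7, and 57 to 136 without 1 hashtag. By construction, having no minimum tests more genes, a minimum of 50 CPM can only drop genes, and a larger pseudocount shrinks ratios. Leaving out hashtags or pooling them leaves fewer values that must agree in direction. How much of each move comes from this, and the cause of the other moves, was not tested.

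Of 2796 ratios of named genes under other settings, 2487 kept within the spread, 301 moved and 8 reversed, all in experiment 2: in cells low in other lineages, a limit that uses genes of the stromal and granulocyte lists, Fn1 (0.31), Bgn (0.20), S100a8 (0.0551), S100a9 (0.25), Cxcl12 (0.14) and Col1a1 (0.18), and in cells with a Tcf7 UMI S100a8 (0.16) and S100a9 (0.0016). TMM and DESeq2 scaling, a stricter cell filter and a hashtag quantile of 0.95 moved none of the counts by over 1.5 times. The settings for other lineages and Tcf7 were chosen after the data were seen. No paired analysis was possible because no test was run and the labels give no replicate numbers that pair samples; the ratios were taken within hashtags. Genes near 20 CPM and hashtags with under 20 Zbtb16 cells are limited by depth.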
